A study of Homo sapiens with 8 samples.

Results

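CDX2, GATA3, TFAP2C and HAND1 are transcription factor genes of the trophectoderm, the outer layer of the blastocyst that gives rise to the placenta. Their loci were examined in 3 lists of called chromatin immunoprecipitation (ChIP-seq) regions from human embryonic stem cells of the established line WA09. Members were all regions of the lists that lay within 50 kb of the hg19 gene bodies, which are CDX2 at chr13:28536205-28543505, GATA3 at chr10:8096667-8117164, TFAP2C at chr20:55204358-55214338 and HAND1 at chr5:153854532-153857824. This gave 164 of the 972037 regions in all. They were 42 of 262109 TEAD4 regions from cells given 10 µM SB431542 for 4 h, 42 of 289380 TEAD4 regions from cells given the solvent DMSO for 4 h, and 80 of 420548 SMAD2 regions from DMSO cells. SB431542 blocks the receptor kinases that phosphorylate SMAD2 in response to activin, Nodal and TGF-β. All groups shared the same cell line, a Matrigel substrate and medium conditioned by mouse embryonic fibroblasts. Each group had 1 library, so no value has a replicate error, and the other 5 groups of the study (SMAD2 under SB431542, and input DNA and IgG under each treatment) were not analysed here.

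In the mouse embryo TEAD4 acts with the Hippo pathway co-activators YAP and TAZ to open the trophectoderm programme, and Cdx2 and Gata3 are among the genes that depend on it. SMAD2 carries the activin and Nodal signal that holds human embryonic stem cells in the pluripotent state, in which trophectoderm genes are mostly silent. CDX2 is a homeobox factor of the trophectoderm and later of the intestine. GATA3 is a zinc finger factor of trophoblast and T cells, TFAP2C is the AP-2γ factor of trophoblast and germ cells, and HAND1 is a basic helix-loop-helix factor that in the mouse drives trophoblast giant cells and heart development. The study set TEAD4 beside SMAD2, and TEAD4 with the SMAD2 signal blocked beside TEAD4 with it running.

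The lists hold positions only, with no score, height or read count. Their order was read as a ranking because the median width fell along each list: it was 198 bp in the first 10% of rows and 106 bp in the last 10% for TEAD4 in SB431542, 299 and 99 bp for TEAD4 in DMSO, and 249 and 99 bp for SMAD2 in DMSO. No header states this. Rows also ran in long stretches of falling chromosome name and position, as tied scores would leave them, so a row number was read only to within its stretch. Over the members, the median length of this stretch was 422 rows for TEAD4 in SB431542, 684 for TEAD4 in DMSO and 192.5 for SMAD2. The TEAD4 list under SB431542 was made in another way than the DMSO lists, since 1.97% of its starts lay on the 50 bp grid that held 100% of the DMSO starts. A region found in 1 TEAD4 list and not in the other is therefore no measured gain or loss of binding, because treatment and list making cannot be told apart.

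No called region covered the start of any of the 4 gene bodies, the only start tested for each gene. In all 3 lists, 0 regions touched the stretch from 250 bases before to 50 after the start of a gene body. At the 87.3 to 140 regions per Mb of the whole lists, stretches so short would seldom meet a region. The same count over other gene starts was not made, so the 0 is not read as absence from these promoters. The RefSeq promoter windows (GRCh38.p14, minus strand) of the genes with 1 listed start, CDX2 at chr13:27969266-27969565 and HAND1 at chr5:154478178-154478477, are shown because TEAD4 regions were called 496 bp upstream of the CDX2 start and 987 bp upstream of the HAND1 start. The starts of the builds were not matched to each other. Stretches of the same extent at the hg19 starts held no part of these TEAD4 regions. Motif counts in the windows therefore say nothing about the sequences of the regions, which were not examined. The windows are written 5′ to 3′ with 250 bases before the start and 50 after it. Capitals mark a match to the SMAD motif CAGAC or to its reverse complement GTCTG.
CDX2: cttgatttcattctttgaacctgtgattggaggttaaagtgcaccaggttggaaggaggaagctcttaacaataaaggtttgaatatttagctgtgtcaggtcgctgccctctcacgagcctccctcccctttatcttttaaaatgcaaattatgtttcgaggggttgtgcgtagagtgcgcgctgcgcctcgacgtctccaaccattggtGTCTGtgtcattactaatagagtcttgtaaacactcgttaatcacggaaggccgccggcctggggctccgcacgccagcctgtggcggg
HAND1: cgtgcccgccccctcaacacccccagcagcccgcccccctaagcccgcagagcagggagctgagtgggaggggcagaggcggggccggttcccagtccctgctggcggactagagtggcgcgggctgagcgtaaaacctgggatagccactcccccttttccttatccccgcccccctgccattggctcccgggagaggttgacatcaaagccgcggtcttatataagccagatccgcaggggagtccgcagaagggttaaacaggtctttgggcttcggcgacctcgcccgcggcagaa
The CDX2 window held 1 such match, at base 212 on the opposite strand, and the HAND1 window held 0. The TEAD motif GGAATG, searched on both strands (reverse complement CATTCC), was found in 0 places of either window. Of all 34943 RefSeq promoter windows of this length, 45.3% held the SMAD motif and 14% held the TEAD motif, so that a window with or without a match is common. With 1 match in all, no matches overlapped. GATA3 has 6 listed starts and was not printed, and TFAP2C was not printed.

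The leading member was a TEAD4 region at the 3′ end of CDX2, and it was called under both treatments. Under SB431542 it lay at chr13:28535909-28536255 in row 625 of the list (0.238% of the rows), across the 3′ edge of the gene body. In DMSO it lay at chr13:28535801-28536199 in row 210 (0.0726% of the rows), ending 6 bp short of that edge and about 7.31 kb downstream of the CDX2 start. The regions shared 291 bp, which was 83.9% of the SB431542 region and 72.9% of the DMSO region. Their stretches were short, 2 rows in SB431542 and 1 row in DMSO, so ties would move these row numbers little if the order is a ranking. SMAD2 had no region there in DMSO cells, and its closest one on that side, at chr13:28533001-28533149, stood in row 369635. Among TEAD4 regions of DMSO cells, 68.8% of rows 1 to 1000 (688 regions) were called again in SB431542 cells, as were 207 of the 209 rows ahead of this region, so being called again was common at that height. Standing in row 625 or earlier in both TEAD4 lists was less so, and this region was 1 of 60 in the genome that did. That limit is the region's own SB431542 row, so it was met by construction. With a limit of 1000 rows in both lists, 165 TEAD4 regions of DMSO cells qualified.

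**Figure D1:**
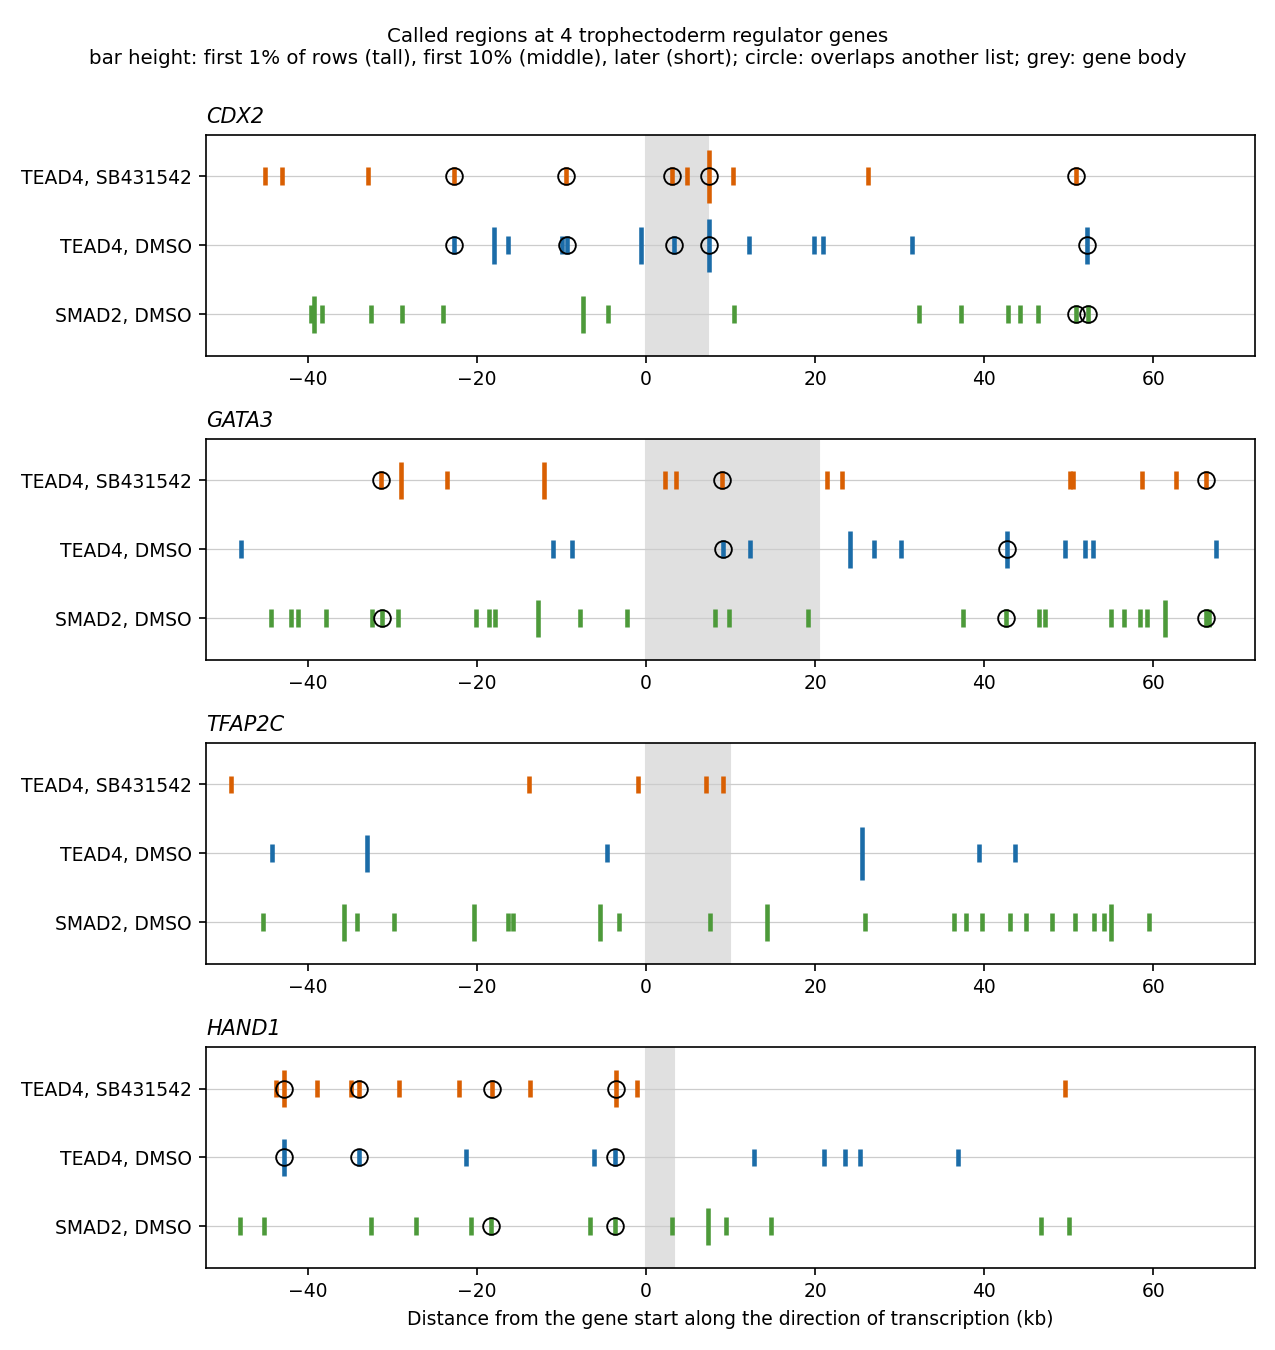
Regions of each list at CDX2, GATA3, TFAP2C and HAND1, placed by the distance of their midpoint from the gene start in kb (negative is upstream), with 1 bar per region. Tall bars are in the first 1% of rows of their list, middle bars in the first 10%, short bars later; circles mark regions that overlap another list and grey marks the gene body. The tall pair at the end of the CDX2 body is rows 625 (SB431542) and 210 (DMSO), TEAD4 pairs are at CDX2, GATA3 and HAND1, and TFAP2C has no circle.

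CDX2 had 11 TEAD4 regions in SB431542 cells, 13 TEAD4 regions in DMSO cells and 16 SMAD2 regions in DMSO cells. Inside the gene body, TEAD4 was called again under both treatments about 3 kb from the start, at chr13:28540312-28540471 in SB431542 (row 75718) and at chr13:28540051-28540449 in DMSO (row 55419). SB431542 cells had a further body region at chr13:28538587-28538690, far down the list in row 253290. The TEAD4 region nearest to the CDX2 start lay 496 bp upstream of it, at chr13:28544001-28544299 in row 6149 of the DMSO list (2.12% of rows), and had no partner in the SB431542 list. The other partnered sites lay upstream. The first was at chr13:28552873-28553027 in SB431542 (row 89002) and chr13:28552801-28552999 in DMSO (row 90001). The other was at chr13:28566209-28566341 in SB431542 (row 97905), wholly inside the DMSO region at chr13:28566201-28566349 (row 180533). Each of the 4 CDX2 pairs of TEAD4 regions thus lay within 22.7 kb of the gene body, 3 of them outside the first 10% of rows of both lists.

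SMAD2 had 0 regions in the CDX2 gene body, which is 7301 bp long. At the 149 SMAD2 regions per Mb of chromosome 13, a body of this length may well hold none. The highest-ranked SMAD2 region, at chr13:28550851-28551099 (row 7396, 1.76% of rows), lay 7.35 kb upstream of the start with no TEAD4 overlap. The nearest SMAD2 region to the start was at chr13:28547901-28548099 (row 127174), 4396 bp upstream. Within 20 kb of the gene body there were 6 TEAD4 regions in SB431542 cells (127 per Mb, exact 95% Poisson interval 46.6 to 276), 10 TEAD4 regions in DMSO cells (211 per Mb, 101 to 389) and 3 SMAD2 regions in DMSO cells (63.4 per Mb, 13.1 to 185). Over the whole lists the densities were 87.3, 96.3 and 140 per Mb in the same order. The interval for TEAD4 in DMSO lay above the density of its list but included the 104 per Mb of chromosome 13, and the other intervals included the densities of their lists. Within 50 kb, TEAD4 in DMSO had 121 per Mb (64.5 to 207), which was not separable from the list. The only overlap of TEAD4 with SMAD2 in DMSO cells lay 52 kb downstream of the CDX2 start, where TEAD4 at chr13:28491251-28491549 (row 4268, 1.47% of rows) and SMAD2 at chr13:28491101-28491299 (row 47432) shared 49 bp. The next protein-coding gene on that side of CDX2 is PDX1, a factor of the pancreas. It was taken by name only, so whether this site lies before, in or past PDX1 was not examined. Close by, TEAD4 under SB431542 at chr13:28492600-28492734 (row 207316) shared 50 bp with SMAD2 at chr13:28492551-28492649 (row 290657). The other member of the first 10% of the TEAD4 rows in DMSO was at chr13:28561301-28561599 (row 27124), and of the SMAD2 rows at chr13:28582601-28582849 (row 27796). Within 5 kb of the 3′ edge, TEAD4 was also called at chr13:28533157-28533268 in SB431542 (row 160233) and at chr13:28531251-28531449 in DMSO (row 145315).

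HAND1 had 12 TEAD4 regions in SB431542 cells, 10 TEAD4 regions in DMSO cells and 14 SMAD2 regions in DMSO cells. It held the only site of the 4 loci called in all 3 lists, about 3.5 kb upstream of the start. TEAD4 under SB431542 lay there at chr5:153861329-153861526 (row 15755, 6.01% of rows), TEAD4 in DMSO at chr5:153861401-153861599 (row 30650, 10.6%) and SMAD2 in DMSO at chr5:153861501-153861599 (row 212800, 50.6%). The TEAD4 regions shared 126 bp, the SMAD2 region lay wholly inside the TEAD4 region of DMSO cells, and it shared 26 bp with that of SB431542 cells. Over the whole TEAD4 list of DMSO cells, 1493 regions (0.516%) met both other lists. Further upstream, TEAD4 was called under both treatments 42.7 kb from the start, in SB431542 at chr5:153900591-153900778 (row 25430, 9.70% of rows) and in DMSO at chr5:153900551-153900849 (row 15102, 5.22%). This was the only site beside the CDX2 3′ end to stand in the first 10% of rows of both TEAD4 lists. The remaining TEAD4 pair lay 33.9 kb upstream, at chr5:153891696-153891810 in SB431542 (row 235256) and chr5:153891601-153891949 in DMSO (row 48700).

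Under SB431542, 11 of the 12 TEAD4 regions at HAND1 lay upstream of the gene and 1 downstream. In DMSO 5 lay upstream and 5 downstream. The counts upstream and downstream were 5 and 3 in SB431542 and 6 and 6 in DMSO at CDX2. They were 4 and 7 against 3 and 8 at GATA3, and 3 and 0 against 3 and 3 at TFAP2C. As the lists were made in different ways, this is no measured shift. The next protein-coding genes beside HAND1, taken by name only, are LARP1 on the upstream side and SAP30L on the downstream side. Whether members lie in them was not examined. The region nearest to the start was called under SB431542, at chr5:153858811-153858934, 987 bp upstream in row 101333. Of the SMAD2 regions, 13 of 14 (92.9%) stood in the last 50% of the rows, the largest share of the 4 loci. It was 50% at CDX2, 55.6% at GATA3, 17.4% at TFAP2C and 50% over the 4 loci together. The exception at HAND1 was the region at chr5:153850301-153850599, 3933 bp past the 3′ end of the gene, in row 6988 (1.66% of rows). SMAD2 also had the single region of the HAND1 body, at chr5:153854751-153854849 in row 339857, and met TEAD4 under SB431542 once more by 17 bp, at chr5:153876101-153876199 (row 229949) and chr5:153875936-153876117 (row 177822).

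**Figure D2:**
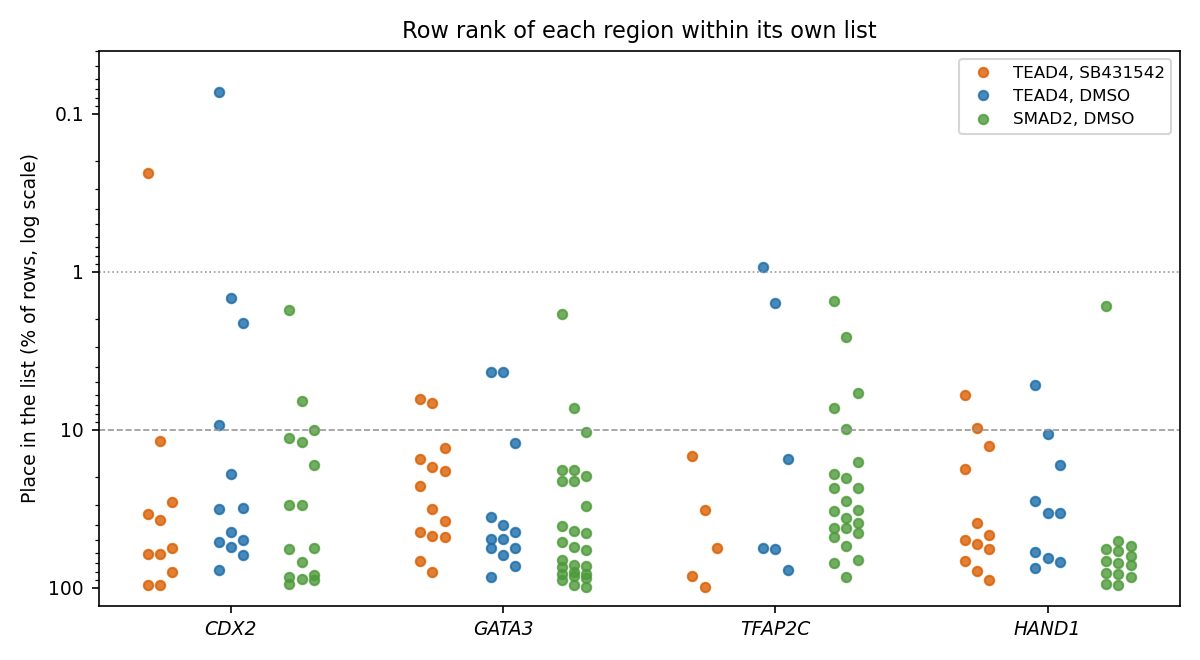
Place of each member in its own list as a percent of the rows (log axis, first rows at the top), by gene and list, with 1 point per region; lines mark 1% and 10%. The CDX2 pair at 0.238% (SB431542) and 0.0726% (DMSO) stands above all other members, and the leading SMAD2 region of each gene lies between 1.54 and 1.86%.

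GATA3 had 14 TEAD4 regions in SB431542 cells, 13 TEAD4 regions in DMSO cells and 27 SMAD2 regions in DMSO cells. The first row was 16673 for TEAD4 in SB431542 (chr10:8084476-8084673, 6.36% of rows) and 12501 for TEAD4 in DMSO (chr10:8139101-8139549, 4.32%), both further down than the leading rows at CDX2. The median TEAD4 member at GATA3 stood at 27.3% of the list in SB431542 and 49.5% in DMSO, and at CDX2 at 56.2% in SB431542 and 32% in DMSO. The next rows were 17818 in SB431542 (chr10:8067633-8067808) and 12502 in DMSO (chr10:8120651-8120949, 3487 bp past the 3′ end). Rows 12501 and 12502 belong to the same stretch of 1302 rows, so their order carries no ranking. Only 1 site was called for TEAD4 under both treatments, inside the gene body 8.84 kb from the start, at chr10:8105507-8105695 in SB431542 (row 48129) and chr10:8105601-8105849 in DMSO (row 162155). The other body regions were 2 for TEAD4 in SB431542, at chr10:8098877-8099007 (row 98820) and chr10:8100119-8100284 (row 125388), and 1 for TEAD4 in DMSO, at chr10:8108901-8109099 (row 143290). Past the 3′ end, TEAD4 under SB431542 was called at chr10:8117965-8118142 (row 34130) and chr10:8119727-8119889 (row 59262).

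Within 50 kb of GATA3, SMAD2 had 224 regions per Mb (148 to 326) against 140 per Mb over the list and 149 per Mb over chromosome 10. The lower bound lay above the density of the list and just below that of the chromosome. Within 20 kb of the gene body there were 9 SMAD2 regions, or 149 per Mb (68 to 282). That interval includes both densities. The leading SMAD2 region was at chr10:8083801-8083999 (row 7839, 1.86% of rows), 12.7 kb upstream of the start, and the next in rank was at chr10:8157901-8158149 (row 30687). SMAD2 was called 3 times in the gene body, at chr10:8104701-8104899 (row 88648), chr10:8106401-8106549 (row 281529) and chr10:8115751-8115849 (row 335993), and 2118 bp upstream of the start at chr10:8094351-8094549 (row 233944). The longest overlap of TEAD4 with SMAD2 in DMSO cells at the 4 loci was the site 42.4 kb downstream of the GATA3 start. TEAD4 at chr10:8139101-8139549 (row 12501) contained the whole of SMAD2 at chr10:8139151-8139449 (row 43196), a shared 299 bp. TEAD4 had no SB431542 region there. TEAD4 under SB431542 met SMAD2 at 2 other places, by 45 bp at chr10:8065303-8065445 (row 116811) with SMAD2 in row 414759, and by 99 bp at chr10:8162774-8162951 (row 179009) with SMAD2 in row 378669.

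At TFAP2C no regions of the lists overlapped. It had 5 TEAD4 regions in SB431542 cells (45.5 per Mb, 14.8 to 106), 6 TEAD4 regions in DMSO cells (54.6 per Mb, 20 to 119) and 23 SMAD2 regions in DMSO cells (209 per Mb, 133 to 314). Each interval includes the density of its list, so that none of these counts is separable from the background of its list. Over the whole lists 3.39 to 7.67% of regions have a partner, so 0 overlaps among so few regions is near the background. Of the 6 TEAD4 regions of DMSO cells, 2 stood in the first 10% of rows and 3 in the last 50%. The leading ones were row 2691 (0.93% of rows) at chr20:55229751-55230049, 15.4 kb past the 3′ end, and row 4532 (1.57%) at chr20:55171201-55171549, 32.8 kb upstream of the start. Neither was called under SB431542, where the first row was 38213, at chr20:55155152-55155331. For rows 1001 to 10000 of the DMSO list, 15.6% had an SB431542 partner, so that lacking one was usual at this height. SMAD2 was called 52 bp away from the first of these TEAD4 regions, at chr20:55230101-55230299 (row 177134), but did not overlap it.

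At TFAP2C the median SMAD2 region stood at 32.2% of its list, compared with 43.1% at CDX2, 55.6% at GATA3 and 68.5% at HAND1. Of 23, 5 (21.7%) stood in the first 10% of rows, and the first of the 4 loci was here, at chr20:55218501-55218749 (row 6482, 1.54% of rows), 4163 bp past the 3′ end. The others were at chr20:55198751-55199049 (row 10952), 5.31 kb upstream of the start, chr20:55183851-55184149 (row 24600), chr20:55168551-55168799 (row 30881) and chr20:55259201-55259399 (row 41680). Nearer the gene, SMAD2 was called at chr20:55201051-55201349 (row 151210) and in the body at chr20:55211851-55211949 (row 79717). TEAD4 under SB431542 was called 899 bp upstream of the start at chr20:55203331-55203459 (row 147056) and in the body at chr20:55211405-55211575 (row 84480) and chr20:55213394-55213517 (row 222158). TEAD4 in DMSO had 0 regions in the body of 9981 bp, which may well hold none at the 95.1 per Mb of chromosome 20. The TEAD4 region of DMSO cells nearest to the start was 4559 bp upstream, at chr20:55199601-55199799 (row 161954).

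**Figure D3:**
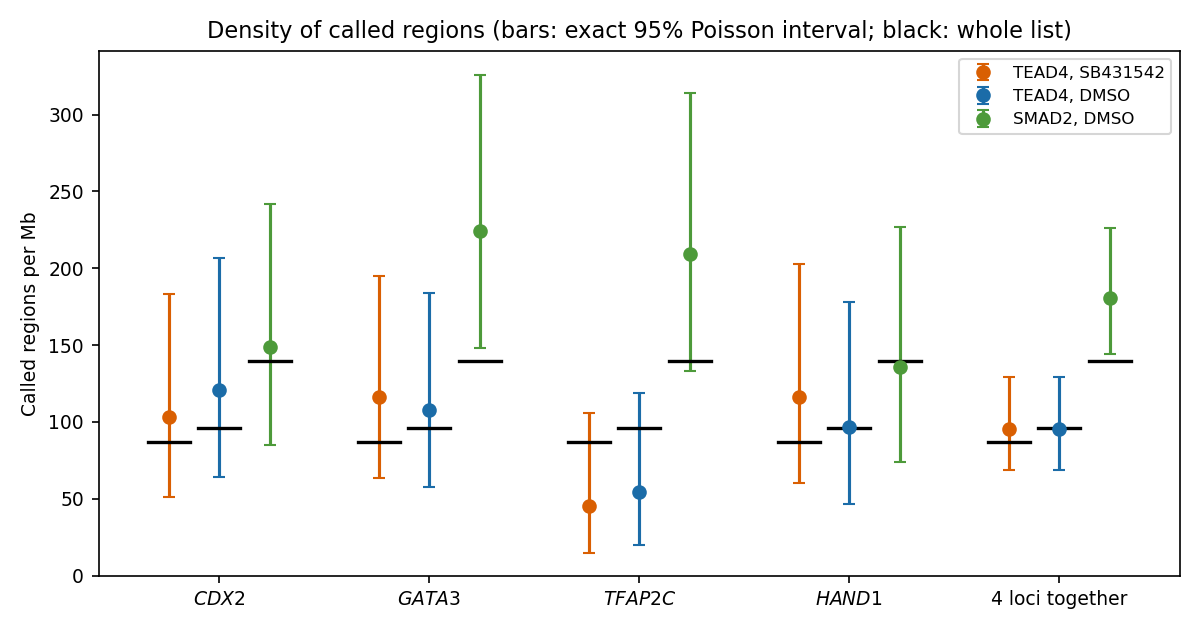
Called regions per Mb at each gene and at the 4 loci together, for each list. Points are the observed densities, error bars the exact 95% Poisson intervals and black lines the whole-list densities of 87.3 (TEAD4 in SB431542), 96.3 (TEAD4 in DMSO) and 140 (SMAD2 in DMSO) per Mb. The whole interval lies above the line for SMAD2 at GATA3 and at the 4 loci together, and all other intervals include their lines.

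Taking the 4 loci together, the density of TEAD4 regions was that of the genome. It was 95.2 per Mb (68.6 to 129) under SB431542 and 95.2 per Mb (68.6 to 129) in DMSO, each from 42 regions. Over the lists it was 87.3 per Mb under SB431542 and 96.3 per Mb in DMSO. SMAD2 reached 181 per Mb (144 to 226) against 140 over its list. The lower bound was below the densities of chromosomes 5, 10, 13 and 20, which were 146 to 155 per Mb, and within 20 kb of the genes it was at 129 per Mb (26 regions). These intervals hold counting error alone, and regions near each other may not be independent. Of the members, 5 of 42 TEAD4 regions in SB431542 (11.9%), 9 of 42 TEAD4 regions in DMSO (21.4%) and 10 of 80 SMAD2 regions (12.5%) stood in the first 10% of rows, where the lists hold 10.0% by definition. Of the 9 in DMSO, 4 were at CDX2.

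The share of TEAD4 regions that met between treatments was higher at the 4 loci than over the whole lists. Of the 42 SB431542 members, 8 (19.0%, 95% Wilson interval 9.98 to 33.3%) overlapped a DMSO region, against 6.39% of the SB431542 list. Of the 42 DMSO members, 8 (19.0%, 9.98 to 33.3%) overlapped an SB431542 region, against 5.69% of the DMSO list. The pairs were 4 at CDX2, 3 at HAND1, 1 at GATA3 and 0 at TFAP2C. All of them lay within 50 kb: with 100 kb on either side the count was still 8, now of 85 SB431542 regions (9.41%, 4.85 to 17.5%) and of 84 DMSO regions (9.52%, 4.91 to 17.7%), and each of these intervals included the share of its list. Without CDX2, 4 of 31 SB431542 members (12.9%, 5.13 to 28.9%) and 4 of 29 DMSO members (13.8%, 5.50 to 30.6%) had a partner, and these intervals too include the shares of the lists. With a gap of up to 500 bp allowed, 9 of 42 SB431542 members (21.4%, 11.7 to 35.9%) had a partner, against 16.4% of the list. For DMSO members it was 10 of 42 (23.8%, 13.5 to 38.5%), against 14.7%. Both intervals include the list shares. Requiring 50% of both regions gave 5 of 42 in each (11.9%, 5.19 to 25%), above the 2.51% (SB431542) and 2.28% (DMSO) of the lists. The first 50% of rows also kept both intervals above the shares of the lists cut in the same way. The genes were chosen with results of these data known, and 4 loci in 1 library per group give no test.

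Overlap of TEAD4 with SMAD2 was near the background in DMSO cells. For TEAD4 under SB431542 it was higher than the background but not separable from it. In DMSO cells 3 of 42 TEAD4 members (7.14%, 2.46 to 19.0%) met a SMAD2 region, against 7.67% of the list, and 3 of 80 SMAD2 members (3.75%, 1.28 to 10.5%) met a TEAD4 region, against 5.29%. Each of CDX2, GATA3 and HAND1 had 1 such site. Under SB431542, 5 of 42 TEAD4 members (11.9%, 5.19 to 25.0%) met a SMAD2 region of DMSO cells, against 5.46% of the list, and 5 of 80 SMAD2 members (6.25%, 2.70 to 13.8%) met them, against 3.39%. These intervals include the shares of the lists. Requiring 50% of both regions left 1 of 42 TEAD4 members in SB431542 (2.38%) with a SMAD2 partner, against 2.17% of the list. In DMSO it left 1 of 42 (2.38%), against 2.5% of the list, so these shares too were near the background.

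**Figure D4:**
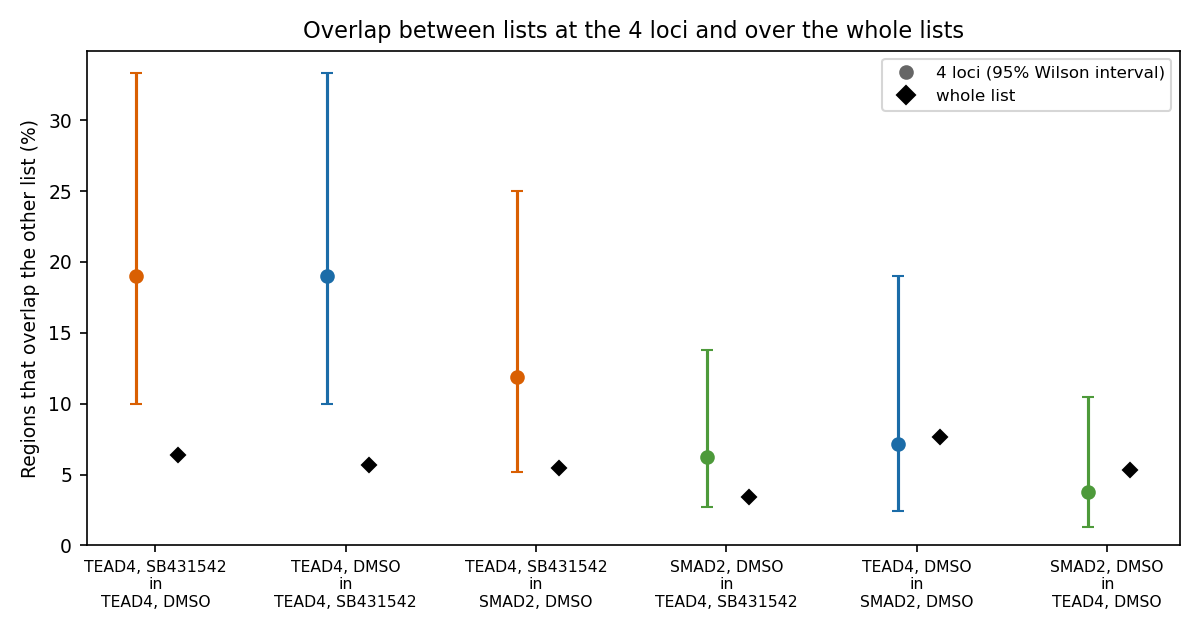
Share of members that overlap a region of another list by at least 1 bp, in percent, with 95% Wilson intervals (circles), beside the share over the whole list (diamonds). The TEAD4 members of each treatment lie at 19.0% with intervals above the diamonds at 6.39% (SB431542) and 5.69% (DMSO), and the intervals for SMAD2 include their diamonds.

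At the edge of the 50 kb rule, the last member inside was a SMAD2 region 49463 bp from TFAP2C (row 293368), and the first region outside was a SMAD2 region 50746 bp from CDX2 (row 93378).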

How the data were processed

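ChIP-seq region lists of TEAD4 in SB431542 cells, TEAD4 in DMSO cells and SMAD2 in DMSO cells were used, 1 library each. Each deposited list gives the chromosome, start and end of the authors' called regions in 3 columns, with no score. Per the submitters' processing notes, positions are on hg19. How reads were aligned and regions called, and against which control, is not given in the sources used here, and depth is unknown. Lists were tied to samples by the target and treatment in their names.

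Starts were raised by 1 bp. Regions within 50 kb of the gene bodies were taken, and overlap meant at least 1 bp. Densities use the span from the first to the last region on each chromosome, assembly gaps included, without the mitochondrial regions. Wilson and exact Poisson intervals (95%) cover counting error only. Overlap counting was checked on simulated regions with planted partners. Members and lists were chosen with earlier results of these data known. Named regions were, per gene and list, the first row, the nearest to the start, those within 5 kb of the body, those that overlap another list and those in the first 10% of rows. Other regions named for comparison were chosen after their values were seen. Strands came from RefSeq, and for TFAP2C from general knowledge. Neighbouring genes were taken by name from RefSeq (GRCh38.p14), and no coordinates were moved between builds. No hg19 sequence was at hand, so region sequences were not analysed here. Alternatives were other windows, other overlap rules, the first 50% of rows, removal of the widest 1% of regions and removal of CDX2. Computation used SciPy 1.17.1 and NumPy 2.4.6 under Python 3.11.15, and plots matplotlib 3.10.9.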

Additional observations from a re-analysis of the deposited data

How the results depend on the processing

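A value was taken as moved when it left the 95% interval of the reported one. Of 40 alternatives for the overlap shares 31 stayed inside, of 12 for the densities over the 4 loci 8 did, and of 24 for the first rows 18 were equal. With 100 kb on either side, TEAD4 members with a partner under the other treatment made up 9.41% in SB431542 and 9.52% in DMSO, because no pair was added. The other moves concern SMAD2. With 50% of both regions required, the share of TEAD4 members with a SMAD2 partner was 2.38% in SB431542, beside 2.17% over the list. In DMSO it was 2.38% beside 2.5%. For SMAD2 members with a TEAD4 DMSO partner it was 1.25% beside 1.72%. With a gap of up to 500 bp the shares of TEAD4 members were 28.6% in SB431542 and 19% in DMSO, beside 19.7% and 22.1% over the lists. Midpoints within 100 bp gave 4.76% for TEAD4 in SB431542 with SMAD2. The share over the list was not computed under that rule, so 4.76% is not read as high or low. The first 50% of rows of each list gave 0% for TEAD4 in SB431542 with SMAD2 (0 of 26), beside 3.32% over the lists cut in the same way. A stricter overlap, a wider gap and shorter lists move a share by construction. The first 50% of rows also lowered the densities to 58.9 per Mb (TEAD4 in SB431542), 56.7 (TEAD4 in DMSO) and 90.7 (SMAD2). This cut takes away 50% of each list, so the densities of the lists fall by construction too. The whole-list densities are therefore no background for these values, which are no sign of depletion. With 20 kb on either side the density of SMAD2 was 129 per Mb. The first row moved with the window: for TEAD4 in SB431542 to 9175 at GATA3 and 2431 at TFAP2C with 100 kb, and to 84480 at TFAP2C with 20 kb; for TEAD4 in DMSO to 30650 at HAND1 with 20 kb and 6659 with 100 kb. The move to 12502 at GATA3 with 20 kb stays within the stretch of rows that holds 12501 and is no change of rank. The CDX2 rows 625 and 210 were the same in all windows. Removal of CDX2, an alternative chosen after seeing the data, left all 5 shares inside their intervals, though the TEAD4 shares between treatments were then no longer separable from those of the lists. No paired analysis was possible because the groups hold a single library each, which also means that none could be left out. Since depth is unknown, absence from a list says only that no region was called.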
